A study of Danio rerio with 8 samples.

Results

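Eosinophils are granulocytes of type 2 immunity. They carry large cytoplasmic granules filled with basic proteins and enzymes, develop in the marrow under the control of C/EBP, GATA and PU.1 factors, and in fish are found in the kidney, the gut and the body cavity. The 4 libraries described here are the wild-type eosinophils of a study of the C/EBP factors cebp1 and cebpb. They were sorted as eGFP+ cells from whole Tg(eslec:eGFP) zebrafish larvae of the AB strain at 7 days post fertilization (dpf), about 500 cells a library. In this line eGFP is driven by the promoter of eslec, the gene si:dkeyp-75b4.10, a predicted C-type lectin gene. The cebp1+/+ pair was profiled with the eslec:eGFP+ cells of 2 cebp1-/- libraries (cebp1smu1 allele). The cebpb+/+ pair was profiled with those of 2 cebpb-/- libraries (cebpbszy7 allele). All 8 libraries of the series therefore share the strain, the age and the reporter, and the labels give no difference between the wild-type pairs other than the experiment they belong to. The libraries of a group came from different pools of larvae, so a library is a pool and not an animal.

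Each library was given as TPM, transcript abundances corrected for gene length that sum to 1000000 in each library. Rank 1 is the gene of highest TPM in a library. After the 2 names starting with mt- and the 330 names starting with mir were removed, 30506 genes were ranked, and 139 of them, 0.456%, were among the top 200 in each of the 4 libraries. These 139 genes are the leading genes below. They held 38.5% and 41.5% in the cebp1+/+ pair and 57.9% and 54.7% in the cebpb+/+ pair of the summed TPM. Being chosen on these ranks, they carry no test of their own level. The removed names held 22.4% and 23.995% in the cebp1+/+ pair and 3.99% and 3.48% in the cebpb+/+ pair, most of it the mitochondrial ribosomal RNA mt-rnr2. The share of genes listed above 0 was 87.8% and 88.1% in the cebp1+/+ pair and 46.6% and 46.3% in the cebpb+/+ pair. TPM keeps no depth, so how many reads lie behind a value is unknown. Each wild-type pair belongs to its own experiment, so a difference between the pairs cannot be told apart from one between the experiments. No test is therefore made between the pairs, and shifts are called by rank. Summed TPM of gene lists is also set side by side. It is a share of the whole library, removed names included, unless stated otherwise, and so depends on the share of those names.

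The sorted cells carried the genes that define them. eslec ranked 2, 3, 1 and 1 in cebp1+/+ libraries 1 and 2 and cebpb+/+ libraries 1 and 2, the order used for every series of 4 values below. Its level was 11840.1 and 14617 TPM in the cebp1+/+ pair and 36138 and 31898 TPM in the cebpb+/+ pair. itln1, which encodes intelectin, a lectin that binds microbial glycans, ranked 93, 97, 71 and 78 and measured 1340.0 and 1323 TPM in the cebp1+/+ pair and 2694 and 2466 TPM in the cebpb+/+ pair. The other markers fell outside the top 200 of at least 1 pair. fcer1gl, the signalling adaptor chain shared by Fc receptors, ranked 282, 220, 107 and 91 and measured 189.6 and 260.1 TPM in the cebp1+/+ pair and 1709 and 1988 TPM in the cebpb+/+ pair. gata2a, the GATA factor of the eosinophil lineage, ranked 287, 358, 238 and 215 and measured 185 and 148 TPM in the cebp1+/+ pair and 539.6 and 651 TPM in the cebpb+/+ pair. All 4 markers were thus within the top 500 of every library, and each of them ranked better in both cebpb+/+ libraries than in both cebp1+/+ libraries. The same order held for 41.3% of the 2095 genes within the top 2000 of both libraries of at least 1 pair. Their level in the mutants is part of the comparison at the end.

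Markers of other blood cells were mostly low, but not all near 0. The neutrophil enzyme gene mpx was listed at 19.06, 12.4, 0 and 0 TPM, and the macrophage gene mpeg1.1 and the erythroid factor gata1a were listed at or near 0 in the 4 libraries. These genes do not stand for their cell types. mfap4, another macrophage marker, measured 5.16, 5.71, 148 and 109 TPM, and the median of the 19 erythroid markers was 5.71, 5.24, 0 and 10.4 TPM. A listed 0 need not mean absence, since the ribosomal gene rpl30 was listed at 0 as well. The summed TPM of the 19 macrophage markers was 0.0169% and 0.0136% in the cebp1+/+ pair and 0.0381% and 0.03% in the cebpb+/+ pair. That of the 19 erythroid markers was 0.0244% and 0.021% in the cebp1+/+ pair and 0.072% and 0.22% in the cebpb+/+ pair. The 17 neutrophil markers summed to 0.0442% and 0.0444% in the cebp1+/+ pair and 0.438% and 0.45% in the cebpb+/+ pair, and mcl1a, a survival gene that the immediate-early list also holds, made up most of the higher pair: it measured 154 and 157 TPM in the cebp1+/+ pair and 3686 and 3656 TPM in the cebpb+/+ pair. Outside blood, the 18 keratinocyte markers summed to 0.099% and 0.294% in the cebp1+/+ pair and 0.0527% and 0.11% in the cebpb+/+ pair. Pigment cell markers held the largest sum of the lists of other cells in every library. tyrp1b and pmela, a melanin synthesis gene and the gene of the melanosome fibril protein, were both among the 139 leading genes. tyrp1b ranked 82, 63, 58 and 52 and measured 1777 and 2547 TPM in the cebp1+/+ pair and 3088 and 3477 TPM in the cebpb+/+ pair. pmela ranked 85, 76, 159 and 139 and measured 1718 and 2178 TPM in the cebp1+/+ pair and 1044 and 1239.8 TPM in the cebpb+/+ pair. mlana and dct, also of pigment cells, were lower: mlana ranked 187, 128, 221 and 197, and dct ranked 178, 146, 327 and 281. The 14 pigment markers summed to 0.458% and 0.643% in the cebp1+/+ pair and 0.532% and 0.617% in the cebpb+/+ pair, ranges that overlap, and the tyrosinase gene tyr stood lower, at 49.5, 80.6, 2.89 and 17.6 TPM. Whether these transcripts belonged to the sorted eosinophils was not tested. In such pools of cells, fewer cells of a type and less RNA per cell cannot be told apart.

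**Figure D1:**
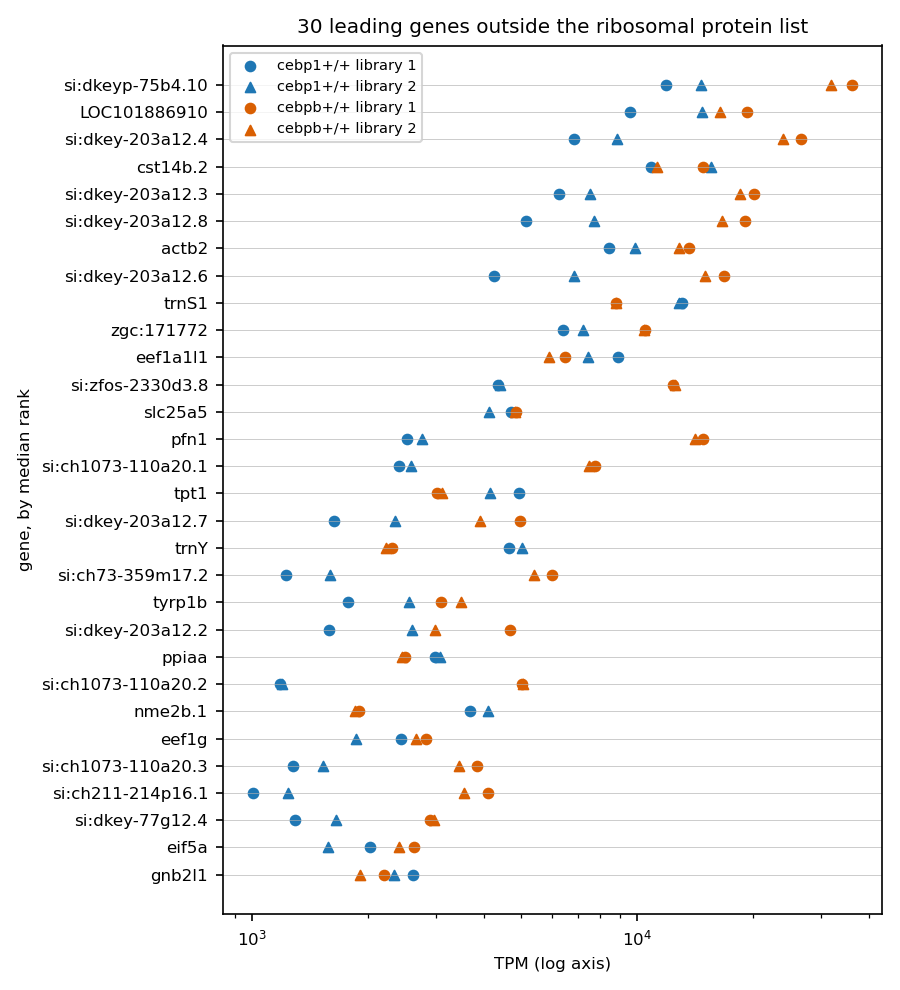
TPM (log axis) of the 30 leading genes of best median rank outside the ribosomal protein list, 1 point a library, blue for the cebp1+/+ pair and orange for the cebpb+/+ pair, circles for library 1 and triangles for library 2. eslec (si:dkeyp-75b4.10) is at the top, the libraries of a pair lie close together, and most genes are further right in the cebpb+/+ pair. trnS1, trnY, tpt1, nme2b.1, eef1a1l1, ppiaa and gnb2l1 are further right in the cebp1+/+ pair.

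The 6 genes of best median rank were eslec, a pair of genes from a stretch of cystatins and 3 from a stretch of Kazal-type inhibitors. They were followed by actb2, a cytoplasmic actin. Of these stretches that of the Kazal-type inhibitors, which block serine proteases, held the largest summed TPM in each of the 4 libraries. 10 of the leading genes lay in neighbouring rows of the tables under the names si:dkey-203a12, si:dkey-77g12 and zgc:158852. RefSeq (GRCz12tu annotation) names 8 of them spink2.1, spink2.2, spink2.5 and spink2.7 to spink2.11, with neighbours in the same order along the chromosome, and it holds 11 genes named spink2 in all. si:dkey-203a12.3 and si:dkey-203a12.6 are known only by their file names and are counted in the family by their place among these rows. si:dkey-203a12.4 (spink2.10) ranked 10, 8, 2 and 2 and measured 6828 and 8858 TPM in the cebp1+/+ pair and 26609.8 and 23944 TPM in the cebpb+/+ pair. si:dkey-203a12.3 measured 6269 and 7523 TPM in the cebp1+/+ pair and 20124 and 18445 TPM in the cebpb+/+ pair. si:dkey-203a12.8 (spink2.5) measured 5139 and 7713 TPM in the cebp1+/+ pair and 19091 and 16645 TPM in the cebpb+/+ pair, and si:dkey-203a12.6 measured 4243 and 6846 TPM in the cebp1+/+ pair and 16802 and 15036 TPM in the cebpb+/+ pair. These 4 genes were at rank 28 or better everywhere. The other 6 members of the family were lower. Of these, si:dkey-203a12.7 (spink2.9) measured 1627 and 2346 TPM in the cebp1+/+ pair and 4972 and 3898 TPM in the cebpb+/+ pair, and zgc:158852 (spink2.1) measured 653 and 749.5 TPM in the cebp1+/+ pair and 3873 and 3115 TPM in the cebpb+/+ pair. Together the 10 genes held 2.92% and 4.06% in the cebp1+/+ pair and 10.4% and 9.01% in the cebpb+/+ pair. By rank, 7 of the 10 were better in both cebpb+/+ libraries and 3 overlapped between the pairs. Beside them, 39 of the 74 leading genes outside ribosomal proteins were better in both cebpb+/+ libraries. So were 41.3% of the 2095 genes within the top 2000 of both libraries of at least 1 pair.

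**Figure D2:**
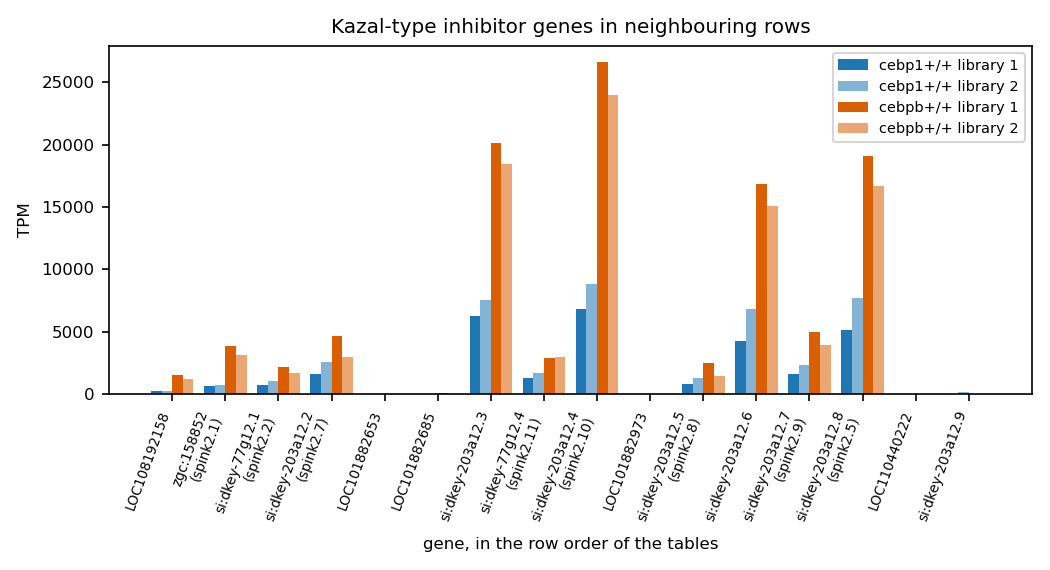
TPM of the 16 genes in neighbouring rows around the Kazal-type inhibitors, with RefSeq names in brackets where they differ, and 1 bar a library. The 4 tallest groups of bars start at 4243 TPM in cebp1+/+ library 1 (si:dkey-203a12.6) and reach 26609.8 TPM in cebpb+/+ library 1 (si:dkey-203a12.4), whereas LOC101882973 between them stays between 0 and 7.9 TPM.

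Not all genes of the stretch were high. LOC108192158, which sits at its edge, ranked 253, 222, 118 and 140 and measured 222 and 257 TPM in the cebp1+/+ pair and 1549.9 and 1233 TPM in the cebpb+/+ pair. At the far end, LOC110440222 measured 1.72, 0.38, 0.0456 and 0 TPM, and si:dkey-203a12.9 measured 19.95, 132, 16.0 and 19.2 TPM. The members of such families can share reads where their copies are alike, and how reads of more than 1 place were counted is not given in the sources used here, so the split between neighbours is uncertain.

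Cystatins, inhibitors of cysteine proteases such as cathepsins, were fewer, and their stretch summed to 2.09% and 3.06% in the cebp1+/+ pair and 3.57% and 2.94% in the cebpb+/+ pair. cst14b.2 ranked 3, 1, 7 and 10 and measured 10845 and 15574 TPM in the cebp1+/+ pair and 14857 and 11281 TPM in the cebpb+/+ pair, so its TPM overlapped between the pairs while its rank was better in the cebp1+/+ pair. LOC101886910, its neighbour in RefSeq, has no family symbol there and is counted by its place. It ranked 5, 2, 4 and 5 and measured 9576 and 14704 TPM in the cebp1+/+ pair and 19328 and 16442 TPM in the cebpb+/+ pair. The 2 other genes of the stretch were lower. cst14b.1 measured 407 and 294 TPM in the cebp1+/+ pair and 1211 and 1337 TPM in the cebpb+/+ pair, with ranks 165, 202, 143 and 131, just outside the limit in cebp1+/+ library 2, and LOC561325 measured 36.2, 65.8, 257 and 379 TPM. A metalloproteinase inhibitor, timp4.2, was also among the leading genes, at 752 and 896 TPM in the cebp1+/+ pair and 2311 and 1608 TPM in the cebpb+/+ pair. Inhibitors of serine, cysteine and metalloproteinases were therefore all in the top 200 of every library.

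Another stretch held the genes si:zfos-2330d3.8, si:ch1073-110a20.1, si:ch1073-110a20.2 and si:ch1073-110a20.3, in neighbouring rows with mfap4. RefSeq names the last of them mfap4.10, a gene of the microfibril-associated, fibrinogen-domain family. si:zfos-2330d3.8 ranked 26, 24, 10 and 9 and measured 4347 and 4389 TPM in the cebp1+/+ pair and 12371 and 12507 TPM in the cebpb+/+ pair. si:ch1073-110a20.1 measured 2409 and 2590.3 TPM in the cebp1+/+ pair and 7775 and 7476 TPM in the cebpb+/+ pair. The 4 genes together held 0.921% and 0.969% in the cebp1+/+ pair and 2.9% and 2.85% in the cebpb+/+ pair. mfap4 itself, used as a macrophage marker in zebrafish, measured only 5.16 and 5.71 TPM in the cebp1+/+ pair and 148 and 109 TPM in the cebpb+/+ pair. zgc:171772, an unnamed protein-coding gene, held rank 12 in each of the 4 libraries, at 6406 and 7246 TPM in the cebp1+/+ pair and 10459 and 10395 TPM in the cebpb+/+ pair. si:ch73-359m17.2, another unnamed gene, measured 1225 and 1588 TPM in the cebp1+/+ pair and 6000.5 and 5393 TPM in the cebpb+/+ pair.

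Ribosomal protein genes made up the largest group. The list of 85 cytosolic ribosomal proteins had 65 leading genes, and 41 of those were within the top 100 of all 4 libraries. rpl19 ranked 4, 6, 15 and 15 and measured 10064 and 9885 TPM in the cebp1+/+ pair and 8645 and 8723 TPM in the cebpb+/+ pair. rps20 ranked 11, 14, 11 and 11 and measured 6690.0 and 6671 TPM in the cebp1+/+ pair and 10509.5 and 11130.4 TPM in the cebpb+/+ pair. The summed TPM of the list was nearly the same in all 4 libraries, 21.14% and 20.9% in the cebp1+/+ pair and 21.3% and 21.13% in the cebpb+/+ pair. As a share of the ranked genes alone it was 27.3% and 27.6% in the cebp1+/+ pair and 22.17% and 21.9% in the cebpb+/+ pair. Some members did not follow the group: rplp0, of the ribosome stalk, measured 7173 and 5916 TPM in the cebp1+/+ pair and 2644 and 2166 TPM in the cebpb+/+ pair, while rpl3, of the large subunit, measured 1867 and 1716 TPM in the cebp1+/+ pair and 8160.1 and 8008 TPM in the cebpb+/+ pair. rpl21 ranked 185, 178, 863 and 940, and rpl30 and rpl39 were listed at or near 0 in all 4 libraries. 9 of 90 translation factor genes were leading genes as well. eef1a1l1, which delivers tRNA to the ribosome, measured 8919.7 and 7429 TPM in the cebp1+/+ pair and 6479.9 and 5885 TPM in the cebpb+/+ pair, and tpt1 measured 4921 and 4152 TPM in the cebp1+/+ pair and 3021 and 3103 TPM in the cebpb+/+ pair. The elongation factor subunit eef1g measured 2435, 1863, 2819 and 2657 TPM, and the initiation factor eif5a measured 2018, 1569.6, 2625 and 2398 TPM. gnb2l1 (rack1), a ribosome-bound scaffold, measured 2614, 2329, 2203 and 1899 TPM.

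The actin cytoskeleton followed. 5 of the 81 cytoskeleton genes were leading genes, and the list summed to 1.82% and 2.01% in the cebp1+/+ pair and 4.73% and 4.63% in the cebpb+/+ pair. actb2 ranked 7, 7, 9 and 8 and measured 8425 and 9854 TPM in the cebp1+/+ pair and 13662 and 12868 TPM in the cebpb+/+ pair. pfn1, the actin monomer-binding profilin, ranked 62, 53, 8 and 7 and measured 2518 and 2765 TPM in the cebp1+/+ pair and 14777 and 14148 TPM in the cebpb+/+ pair. cfl1, the actin-severing cofilin, ranked 191, 169, 38 and 36 and measured 315 and 409.6 TPM in the cebp1+/+ pair and 4261 and 4233 TPM in the cebpb+/+ pair. tmsb4x, a second monomer-binding protein, ranked 94, 95, 85 and 86, and the beta-tubulin tubb4b ranked 138, 140, 119 and 100. pfn1 and cfl1 thus ranked far better in the cebpb+/+ pair, while actb2 and tmsb4x ranked alike in both.

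The secretory pathway was represented by 5 of 103 genes of endoplasmic reticulum (ER) entry and folding. agr2, an ER-resident disulfide isomerase needed for mucin folding in mammals, measured 835 and 738 TPM in the cebp1+/+ pair and 3359 and 2905 TPM in the cebpb+/+ pair. pdia2, a protein disulfide isomerase of the mammalian pancreas, measured 705 and 555 TPM in the cebp1+/+ pair and 1638 and 1171 TPM in the cebpb+/+ pair, whereas the exocrine pancreas enzyme gene cpa5 was listed at 7.4, 13.4, 0 and 0 TPM. sec61a1 (sec61a1a), the channel subunit of the translocon, measured 352 and 324 TPM in the cebp1+/+ pair and 1698 and 1548 TPM in the cebpb+/+ pair, and of its associated proteins ssr2 measured 619, 586, 1093 and 1012 TPM and ssr4 measured 365, 317, 1372 and 1546 TPM. xbp1, the transcription factor that expands the secretory apparatus, missed the limit in the cebp1+/+ pair at ranks 232, 215, 50 and 38. The list summed to 0.758% and 0.685% in the cebp1+/+ pair and 2.78% and 2.86% in the cebpb+/+ pair.

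In metabolism, 4 of 78 genes led: slc25a5, nme2b.1, gapdhs and tdh. slc25a5, the mitochondrial ADP/ATP carrier, ranked 24, 28, 32 and 29 and measured 4697 and 4109 TPM in the cebp1+/+ pair and 4847 and 4815 TPM in the cebpb+/+ pair, nearly the same in the pairs. nme2b.1, a nucleoside diphosphate kinase, measured 3686 and 4089 TPM in the cebp1+/+ pair and 1888 and 1847 TPM in the cebpb+/+ pair. gapdhs, a glyceraldehyde-3-phosphate dehydrogenase, measured 718 and 641 TPM in the cebp1+/+ pair and 3076 and 3278 TPM in the cebpb+/+ pair. tdh, L-threonine dehydrogenase, measured 358 and 467 TPM in the cebp1+/+ pair and 1603 and 1805 TPM in the cebpb+/+ pair. The creatine kinase ckbb measured 815, 793, 1777 and 1777 TPM, and the mitochondrial carrier ucp2 measured 370.1, 351, 1152 and 959 TPM. No gene of the 117 of nuclear-encoded oxidative phosphorylation passed the limit in all 4 libraries, and atp5g3b, of the ATP synthase, came closest at 563, 564, 722 and 715 TPM. Among antioxidant and iron genes, only prdx2, a peroxiredoxin, was in the list and among the leading genes, at 614, 601, 1028 and 1336 TPM. zgc:92066, which RefSeq names the ferritin gene fthl27, measured 522, 835, 1872 and 3870.3 TPM, and zgc:56493 (thioredoxin txna) measured 379, 406, 1475 and 1536 TPM. Mitochondrial transfer RNAs without the mt- prefix stayed in the ranking: trnS1 measured 13042 and 12867 TPM in the cebp1+/+ pair and 8801 and 8821 TPM in the cebpb+/+ pair and trnY measured 4652 and 5025 TPM in the cebp1+/+ pair and 2299 and 2230.3 TPM in the cebpb+/+ pair. zgc:158463, which RefSeq annotates as a ribosomal RNA, measured 7267 and 13749 TPM in the cebp1+/+ pair and 889 and 793 TPM in the cebpb+/+ pair.

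Of the 44 C/EBP, GATA, Ets and bZIP factor genes, cebpb alone was a leading gene. It ranked 147, 155, 23 and 25 and measured 531 and 495 TPM in the cebp1+/+ pair and 6360.4 and 5716 TPM in the cebpb+/+ pair. cebpa, a C/EBP factor of myeloid progenitors, ranked 426, 375, 164 and 169 and measured 118 and 139.8 TPM in the cebp1+/+ pair and 1012 and 949 TPM in the cebpb+/+ pair. nfe2 ranked 361, 413, 191 and 218, and spi1b, the PU.1 gene, ranked 543, 462, 289 and 256. cebpb, cebpa and spi1b all ranked better in both cebpb+/+ libraries than in both cebp1+/+ libraries, as did 41.3% of the 2095 genes described above. cebp1 was listed at 0 in all 8 libraries, wild type and mutant, so its values check no label. Among receptors, cxcr4b, the CXCL12 receptor that retains cells in the mammalian marrow, ranked 276, 441, 70 and 72 and measured 195 and 115 TPM in the cebp1+/+ pair and 2713 and 2581 TPM in the cebpb+/+ pair. ccr9a, a chemokine receptor of gut homing in mammals, ranked 517, 436, 137 and 134. Of the remaining genes that the study ties to the lineage, cox5ab ranked 696, 1753, 688 and 628, and cox6a2 measured 1.63, 7.58, 8.18 and 5.95 TPM. The tetraspanin cd81a was the only receptor list gene within the limit everywhere, and it was the last one inside it, at ranks 175, 153, 196 and 194 and levels of 375, 520.5, 713 and 774 TPM. ssr4 and cfl1 were the next inside, with worst ranks of 193 and 191. cst14b.1 and zgc:86599 were the first outside, with worst ranks of 202 and 204, followed by atp5g3b, and zgc:86599 measured 279, 383, 787 and 871 TPM. il1rl1, the receptor of interleukin 33, ranked 1808, 1524, 1644 and 1413. The complement gene c3a.4 measured 555, 616, 1075 and 908 TPM. None of 37 antigen presentation genes was a leading gene.

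**Figure D3:**
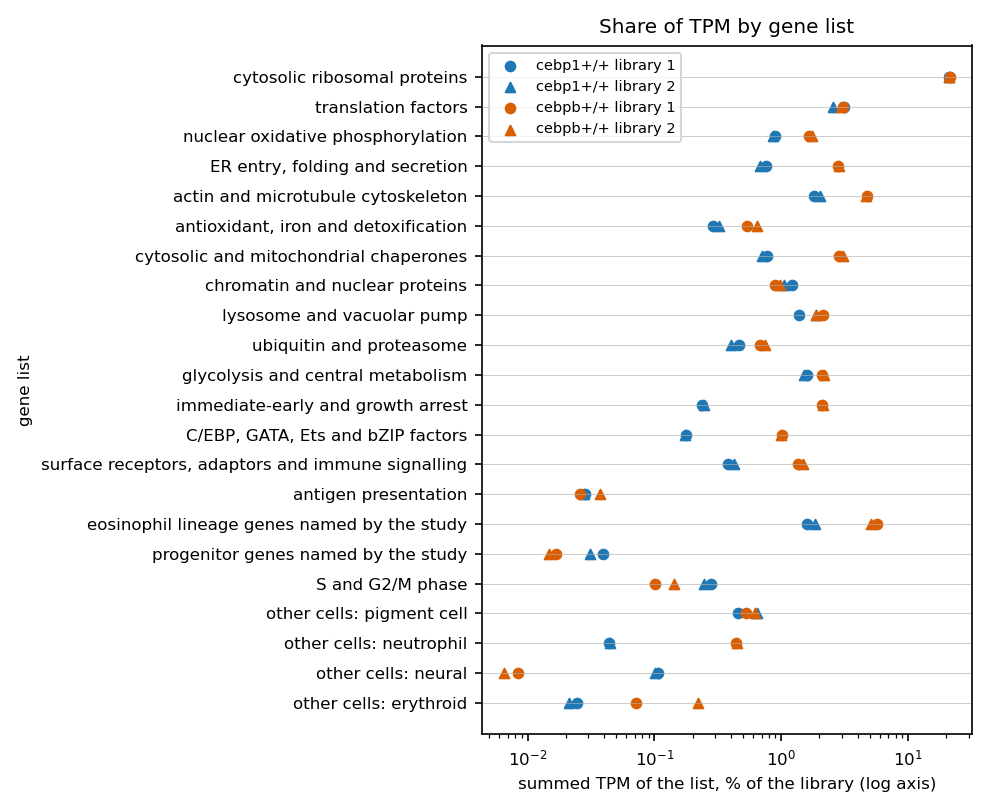
Summed TPM of each gene list as a percent of the library (log axis), 1 point a library, for the lists of function and lineage and for 4 lists of other cells. Ribosomal proteins hold 20.9% to 21.3% in all 4 libraries, while immediate-early, chaperone and ER lists are higher in both cebpb+/+ libraries and the S and G2/M and neural lists in both cebp1+/+ libraries.

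The study drew marker lists of 3 stages of eosinophil development from kidney marrow cells. Of the 247 pre.Eos markers 68 were leading genes, 46 of them ribosomal and 22 not, among these eslec, cst14b.2, zgc:171772 and agr2. Of the 195 EoP (progenitor) markers 10 led, and of the 246 ranked mat.Eos (mature) markers 11. The median rank of the pre.Eos markers was 416, 457, 463 and 472 in the 4 libraries. That of the EoP markers was 1258, 1500.0, 2582 and 2789, and that of the mat.Eos markers 2835, 2372, 1108 and 1120.0. The pre.Eos markers held the best median rank in every library. EoP markers came before mat.Eos markers in the cebp1+/+ pair and after them in the cebpb+/+ pair. Across all ranked genes 0.456% were leading genes.

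Over all ranked genes the libraries of a pair resembled each other more than they resembled the other pair, but this did not hold for the cebp1+/+ pair over the 13718 genes of at least 10 TPM in at least 1 library. Across all 30506 ranked genes, which are not independent replicates, Spearman's rho was 0.789 within the cebp1+/+ pair and 0.730 within the cebpb+/+ pair. Between pairs it was 0.547 ± 0.0095 (SD over the 4 library combinations, which share libraries). Over the 13718 genes it was 0.456 within the cebp1+/+ pair, 0.824 within the cebpb+/+ pair and 0.425 to 0.479 between them. Over the 139 leading genes it was 0.982 and 0.978 within the pairs and 0.534 to 0.559 between them. Of the top 200 genes, 185 were shared within the cebp1+/+ pair and 190 within the cebpb+/+ pair. The 139 shared by all 4 were 75.1% of the first set and 73.2% of the second. Of the top 50, 27 were shared by all 4, and of the top 1000, 583. Among the 139, 69 ranked better in both cebp1+/+ libraries, 50 in both cebpb+/+ libraries, and 20 overlapped. The ribosomal members leaned to the cebp1+/+ pair, 48 against 11, and the other 74 to the cebpb+/+ pair, 39 against 21. Beside these counts, of the 2095 genes within the top 2000 of both libraries of at least 1 pair, 35.9% ranked better in both cebp1+/+ libraries and 41.3% in both cebpb+/+ libraries.

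**Figure D4:**
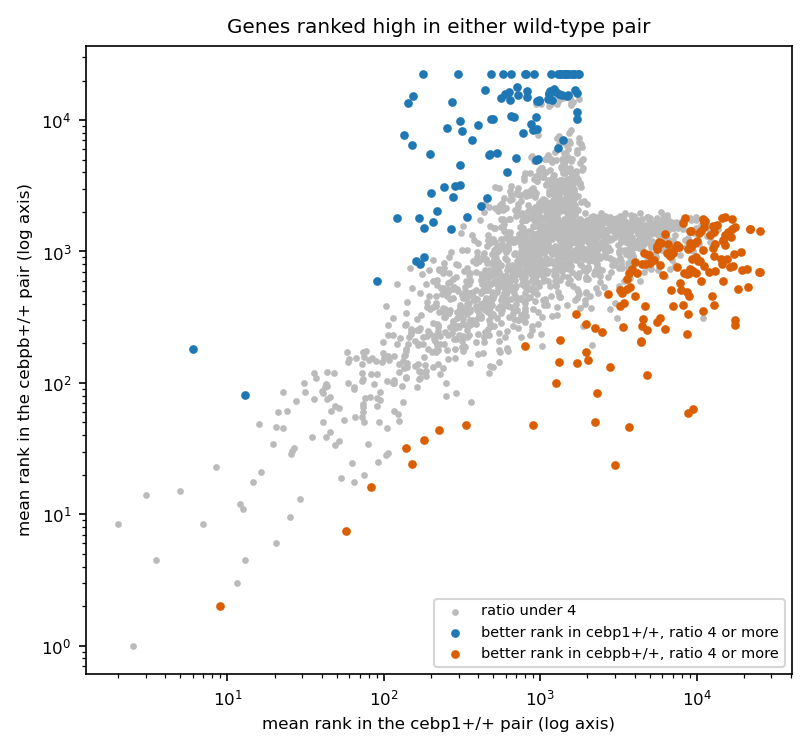
Mean rank of 2095 genes in the cebp1+/+ pair (x axis) and the cebpb+/+ pair (y axis), both log axes, 1 point a gene. Blue points (99) rank better in cebp1+/+ and orange points (156) in cebpb+/+ by a ratio of at least 4 between the closest libraries, and the row of points at the top is genes listed at 0 in the cebpb+/+ pair.

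A gene was called shifted where its worse rank in one pair was still at least 4 times better than its better rank in the other. A gene could be considered through 1 pair alone. Lists low in one pair therefore enter through the pair where they are high, which can raise the share shifted to it. Of the 2095 genes 156 (7.45%) shifted towards the cebpb+/+ pair and 99 (4.73%) towards the cebp1+/+ pair. Of the 139 leading genes 6 shifted to the cebpb+/+ pair and 2 to the other. Leading genes were chosen by a rank limit in every library, which caps the rank ratio they can reach. Only those near the very top of a pair could be called shifted. These counts therefore cannot be set against the shares of all considered genes, and do not show whether leading genes were steadier. The 6 were si:dkey-203a12.4, pfn1, cebpb, cfl1, rpl3 and si:ch1073-376c22.1, and the 2 were zgc:158463 and rplp0. The rule is looser with 1 library of a pair left out: without cebp1+/+ library 1 the counts over all considered genes, cebpb+/+ first, were 239 and 255, and without cebp1+/+ library 2 they were 254 and 261. Without cebpb+/+ library 1 they were 250 and 134, and without cebpb+/+ library 2 they were 208 and 133.

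Heat shock and immediate-early genes led the shift to the cebpb+/+ pair. The largest rank ratios were those of hsp70.1 and hsp70.3, which encode inducible HSP70 chaperones. hsp70.1 ranked 9007, 8671, 62 and 56 and measured 12.4 and 10.18 TPM in the cebp1+/+ pair and 2997 and 3402 TPM in the cebpb+/+ pair. hsp70.3 ranked 9373, 9638, 67 and 59 and measured 11.996 and 9.3 TPM in the cebp1+/+ pair and 2828 and 3129.8 TPM in the cebpb+/+ pair. The copies are alike and may share reads. hsp70l, another inducible copy, measured 34.0 and 17.9 TPM in the cebp1+/+ pair and 5911 and 6438 TPM in the cebpb+/+ pair, and dnajb1b, an HSP40 co-chaperone, measured 20.7 and 21.2 TPM in the cebp1+/+ pair and 3853 and 3609 TPM in the cebpb+/+ pair. The HSP90 alpha gene hsp90aa1.2 measured 26.5 and 35.6 TPM in the cebp1+/+ pair and 3169 and 3699 TPM in the cebpb+/+ pair, whereas hsp90ab1, the HSP90 beta gene and a leading gene, measured 1708 and 1435 TPM in the cebp1+/+ pair and 2519.6 and 2474 TPM in the cebpb+/+ pair. The cyclophilin ppiaa, also a leading gene, measured 2984 and 3081 TPM in the cebp1+/+ pair and 2497 and 2453 TPM in the cebpb+/+ pair. Of the 24 chaperone list genes considered 7 (29.2%) shifted to the cebpb+/+ pair and 0 to the cebp1+/+ pair. Over all considered genes these shares were 7.45% and 4.73%. The HSP70 genes summed to 0.00584% and 0.00374% in the cebp1+/+ pair and 1.17% and 1.3% in the cebpb+/+ pair.

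Of 42 immediate-early and growth arrest genes considered 18 (42.9%) shifted to the cebpb+/+ pair and 0 to the other, beside 7.45% and 4.73% of all considered genes. jdp2b, an AP-1 family factor, measured 3.04 and 6.49 TPM in the cebp1+/+ pair and 400.5 and 428 TPM in the cebpb+/+ pair. Of other AP-1 genes, junba measured 0.533, 9.91, 487 and 461 TPM, junbb measured 22.17, 32.0, 1305 and 1351 TPM, and fosab measured 62.8, 33.7, 2050.4 and 1684 TPM. ddit3, the stress-induced C/EBP family factor CHOP, measured 17.5 and 13.3 TPM in the cebp1+/+ pair and 400.1 and 382 TPM in the cebpb+/+ pair. The ER chaperone hspa5 measured 34.8 and 23.7 TPM in the cebp1+/+ pair and 2079.7 and 2526 TPM in the cebpb+/+ pair. Of the 52 ER list genes considered 4 (7.69%) shifted to the cebpb+/+ pair, a share near that of all considered genes. il1b, which encodes interleukin 1 beta, measured 4.37 and 1.88 TPM in the cebp1+/+ pair and 118 and 408 TPM in the cebpb+/+ pair, and cd83, an activation marker of immune cells, measured 1.55 and 0.48 TPM in the cebp1+/+ pair and 153 and 127 TPM in the cebpb+/+ pair. Of the 31 genes considered from the list of receptors and immune signalling 1 (3.23%) shifted to the cebpb+/+ pair. bag3, an HSP70 co-chaperone, measured 5.41, 3.6, 182 and 223 TPM, and the DnaJ gene dnaja measured 22.17, 13.8, 1479 and 1751 TPM. 29 of the 152 mat.Eos markers considered shifted to the cebpb+/+ pair, against 2 of 210 pre.Eos and 1 of 113 EoP markers, and 19 of those 152 are also in the immediate-early list.

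For most shifted genes the mutant libraries ranked with the wild type of their own experiment. hsp70.1 measured 4.33 and 3.79 TPM with cebp1-/- cells against 4794 and 3326 TPM with cebpb-/- cells. jdp2b measured 3.9 and 6.05 TPM with cebp1-/- cells against 887 and 909 TPM with cebpb-/- cells, and fosab 80.3 and 83.7 TPM with cebp1-/- cells against 6116 and 5832 TPM with cebpb-/- cells. In the counts that follow, the order of the wild-type libraries was set by the rule that chose the genes. The share over all considered genes is not given, so the counts describe these genes only. Of the 156 genes shifted to the cebpb+/+ pair, 122 ranked better in all 4 libraries of the cebpb experiment than in any of the 4 of the cebp1 experiment. Of the 99 shifted to the cebp1+/+ pair, 74 ranked better in all 4 libraries of the cebp1 experiment. Others did not: si:dkey-251i10.2 measured 58.1 and 129 TPM with cebp1-/- cells against 165 and 233.6 TPM with cebpb-/- cells, the reverse of the wild-type order, and fabp7a overlapped, at 129 and 63.3 TPM with cebp1-/- cells against 54.0 and 154 TPM with cebpb-/- cells. The chaperone list summed to 0.916% and 0.877% in cebp1-/- and 3.74% and 2.96% in cebpb-/-, and the immediate-early list to 0.262% and 0.263% in cebp1-/- and 4.06% and 3.95% in cebpb-/-. Whether the experiments were sorted, prepared or sequenced apart is not given in the sources used here, and these cannot be told apart from the experiment.

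**Figure D5:**
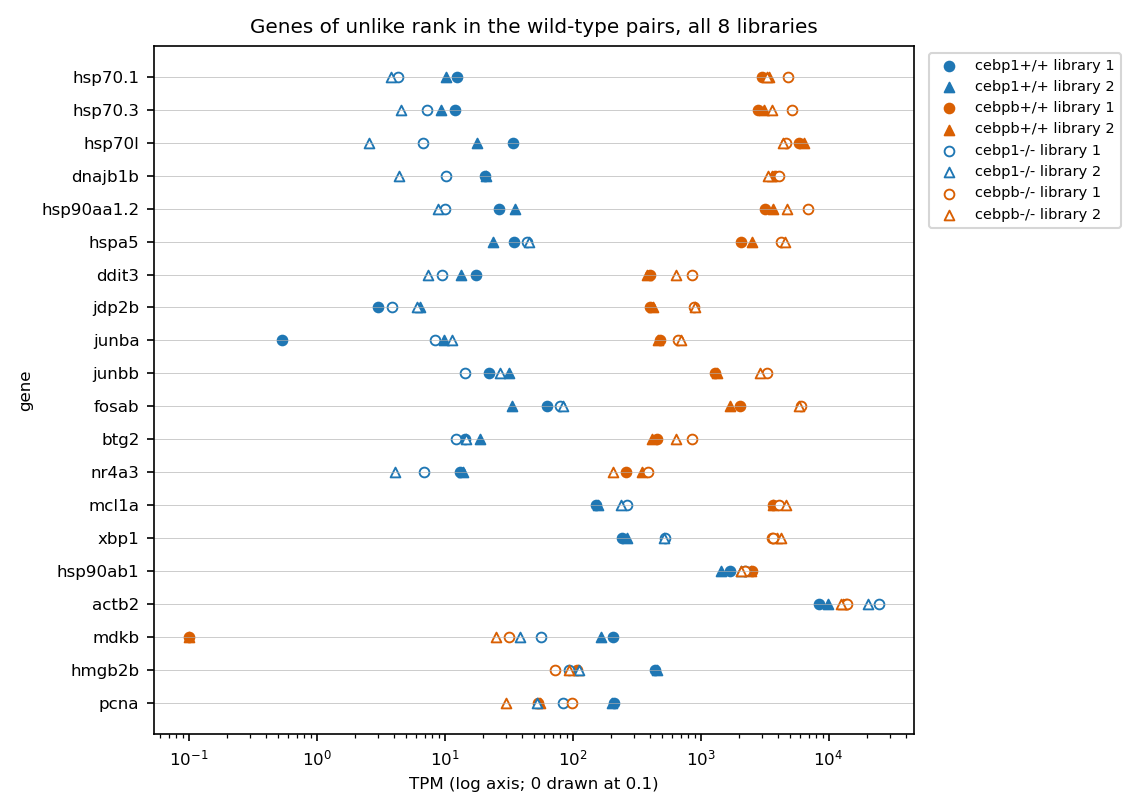
TPM (log axis) of 20 genes in all 8 libraries, blue for the cebp1 experiment and orange for the cebpb experiment, filled for wild type and open for mutant, circles for library 1 and triangles for library 2. The heat shock, ER stress and immediate-early genes drawn, picked with the wild-type ranks known, separate the experiments whatever the genotype and do not stand for their lists. hsp90ab1 and actb2 span a narrower range, and mdkb, listed at 0 TPM in both cebpb+/+ libraries, is drawn at 0.1.

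Genes shifted to the cebp1+/+ pair were more mixed. mdkb, the growth factor midkine, measured 209 and 166 TPM in the cebp1+/+ pair and 0 and 0 TPM in the cebpb+/+ pair. trnF, a mitochondrial transfer RNA, measured 253 and 608 TPM in the cebp1+/+ pair and 0 and 0 TPM in the cebpb+/+ pair. tmsb, a beta-thymosin, measured 98.3 and 76.2 TPM in the cebp1+/+ pair and 0 and 0 TPM in the cebpb+/+ pair. fabp7a, a fatty acid-binding protein of radial glia, measured 497, 595, 0 and 9.05 TPM, and the alpha-tubulin tuba1c measured 107, 61.8, 0 and 0 TPM. Of the other genes of largest shift, si:dkey-251i10.2 measured 994, 301, 1.89 and 0 TPM, si:ch211-113a14.22 92.9, 121, 0 and 0 TPM, LOC101885394 458, 543, 6.32 and 3.03 TPM and wu:fc46h12 763, 519, 9.88 and 0.215 TPM. 22 of the 99 genes were listed at 0 in both cebpb+/+ libraries, so their ratio of ranks has no measured level behind it. Beside them, the 20 neural markers summed to 0.106% and 0.101% in the cebp1+/+ pair and 0.00846% and 0.00655% in the cebpb+/+ pair. Of these, 6 were considered and 4 shifted to the cebp1+/+ pair, a count that entry through that pair alone can raise. The part of neural cells in the result was not tested. Liver, intestine, endothelium, cartilage, lens and thrombocyte lists were also higher in both cebp1+/+ libraries, where more genes were listed above 0. Intestine markers summed to 0.0185% and 0.0153% there and 0.00127% and 0.00195% in the cebpb+/+ pair. Neutrophil, macrophage and erythroid lists were higher in both cebpb+/+ libraries. The exocrine pancreas list was too, at 0.0876%, 0.0682%, 0.164% and 0.119%. Most of that sum in each library was pdia2, which the study names as a pre.Eos gene, so it is no measure of pancreas transcripts. The remaining lists of other cells overlapped in summed TPM. As a share of the ranked genes alone, keratinocyte markers were higher in both cebp1+/+ libraries, at 0.128% and 0.387% against 0.0549% and 0.114%. Cell cycle genes were on the side of the cebp1+/+ pair as well. pcna, the DNA polymerase clamp, measured 209 and 203.3 TPM in the cebp1+/+ pair and 53.5 and 55.6 TPM in the cebpb+/+ pair, and hmgb2b, a chromatin protein of dividing cells, measured 443 and 453 TPM in the cebp1+/+ pair and 109 and 110.5 TPM in the cebpb+/+ pair. mki67 measured 35.2, 35.5, 0.455 and 0.523 TPM, and top2a measured 29.4, 27.6, 0 and 0.0803 TPM. Of the other progenitor genes, myca measured 44.3, 12.27, 59.4 and 51.9 TPM, and mcm2 measured 33.8, 17.9, 11.77 and 1.88 TPM. Of the 62 genes of the S and G2/M list 12 were considered. Of these, 4 (33.3%) shifted to the cebp1+/+ pair and 0 to the other, a share that entry through that pair alone can raise. The list summed to 0.278% and 0.245% in the cebp1+/+ pair and 0.1% and 0.142% in the cebpb+/+ pair. hmgn2, a nucleosome-binding protein of the EoP and pre.Eos markers, measured 1682 and 1449 TPM in the cebp1+/+ pair and 178 and 163 TPM in the cebpb+/+ pair. The chromatin list had 5 of 54 genes (9.26%) shifted to the cebp1+/+ pair and 0 to the other, beside 4.73% and 7.45% of all considered genes.

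Most leading genes of the wild type were also leading genes in the mutants. 132 of the 139 were in the top 200 of both cebp1-/- libraries and 113 of both cebpb-/- libraries. In the top 500 they were 139 and 136. Each mutant was compared with the wild type of its own table by limma on log2(scaled TPM + 1), with 2 libraries a group, and p-values were adjusted over all genes tested. Of 25203 genes 323 (1.28%) were higher and 32 (0.127%) lower in cebp1-/-, at an adjusted p under 0.05. Of the 139 leading genes 66 were higher and 0 lower, and 130 and 1 had an unadjusted p under 0.05. Over all genes tested 2444 and 1237 did. With TPM as deposited 3 leading genes were higher and 1 lower, beside 16 and 29 of 25527 genes. Unadjusted, 448 of all genes were then higher and 7689 lower at a p under 0.05 in limma. The median log2 fold change of all genes moved from -0.06 to -0.90. That of the leading genes moved from 1.19 to 0.12. The calls therefore rest on the scaling. The median of the leading genes lay above that of all genes by 1.26 and 1.02 on the log2 scale. The scaling is 1 factor for each library and moves all genes nearly alike. It could hardly change this difference, which is therefore no check of the scaling. The 3 that were higher under both scalings were actb2, si:zfos-2330d3.8 and timp4.2. actb2 measured 24899.6 and 20211 TPM beside 8425 and 9854 TPM in its wild type, and timp4.2 measured 2506 and 3429 TPM beside 752 and 896 TPM. As deposited, trnE was lower, and under the scaling it was not called. eslec (si:dkeyp-75b4.10) measured 20719.5 and 24085 TPM beside 11840.1 and 14617 TPM in its wild type. Its log2 fold change in cebp1-/- was 1.83 ± 0.23 (SE; adjusted p = 0.0257 in limma) with the scaling and 0.76 ± 0.14 (SE; adjusted p = 0.0685 in limma) as deposited. itln1 measured 2629.7 and 2214 TPM beside 1340.0 and 1323 TPM, and its log2 fold change was 1.93 ± 0.25 (SE; adjusted p = 0.0257 in limma) with the scaling and 0.86 ± 0.17 (SE; adjusted p = 0.0700 in limma) as deposited. gata2a measured 286 and 301 TPM beside 185 and 148 TPM, and its log2 fold change was 1.89 ± 0.27 (SE; adjusted p = 0.0304 in limma) with the scaling and 0.82 ± 0.24 (SE; adjusted p = 0.0927 in limma) as deposited. fcer1gl did not pass the test under either scaling, at 291 and 338 TPM beside 189.6 and 260.1 TPM and 1.56 ± 0.32 (SE; adjusted p = 0.0702 in limma) on the log2 scale with the scaling. With any 1 of the 4 libraries left out an arm holds a single library and no gene was called, while the log2 fold change of eslec was 1.55 to 2.16 and that of gata2a 1.85 to 1.99.

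In cebpb-/- 0 of 11478 genes (0%) were called higher and 0 (0%) lower by limma, and 704 and 924 had an unadjusted p under 0.05. Of the 139 leading genes 2 and 122 did. Their median log2 fold change was -1.03 with the scaling and -0.48 as deposited, beside -0.03 and 0.46 over all genes. The difference was -1.01 and -0.94, which the scaling could hardly change. eslec (si:dkeyp-75b4.10) measured 11658 and 17653 TPM beside 36138 and 31898 TPM in its wild type. Its log2 fold change was -1.79 ± 0.27 (SE; adjusted p = 0.150 in limma) and that of itln1 was -1.13 ± 0.22 (SE; adjusted p = 0.166 in limma). gata2a and fcer1gl differed less, by -0.50 ± 0.23 (SE; adjusted p = 0.397 in limma) and -0.64 ± 0.29 (SE; adjusted p = 0.400 in limma). As deposited the log2 fold changes were -1.24 for eslec, -0.58 for itln1, -0.09 for fcer1gl and 0.05 for gata2a, so that of gata2a changed sign. gata2a measured 599.8 and 624 TPM beside 539.6 and 651 TPM in its wild type, and fcer1gl measured 1396 and 2142 TPM beside 1709 and 1988 TPM. A pair of Kazal-type inhibitor genes, singled out after their values were seen, stood lowest: si:dkey-203a12.2 measured 65.0 and 26.6 TPM beside 4667 and 2979 TPM, and si:dkey-77g12.1 measured 21.3 and 34.5 TPM beside 2206 and 1671 TPM. The adjusted p of each was 0.0617 in limma, so neither was called. The targeted gene cebpb measured 2928 and 1480.2 TPM beside 6360.4 and 5716 TPM in its wild type. The pigment markers summed to 0.209% and 0.311% in cebp1-/- and 2.96% and 1.86% in cebpb-/-, with tyrp1b at 859.8 and 1305 TPM with cebp1-/- cells against 16552 and 10749.8 TPM with cebpb-/- cells. Their part in these comparisons was not tested. Since the leading genes were chosen on the wild-type libraries that enter each comparison, these counts describe them and support nothing further.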

How the data were processed

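Wild-type and mutant eslec:eGFP+ cells of 7 dpf larvae were profiled by a modified Smart-seq2 protocol. Per the labels and the study's methods, the authors aligned reads to GRCz11 with STAR, counted them with featureCounts and tested counts with DESeq2. They deposited 1 table of TPM for each experiment. The gene annotation, gene lengths, the treatment of reads with several places and the read totals are not given in the sources used here. Columns were matched to samples by experiment, genotype and number.

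Genes were ranked by TPM within a library after names starting with mt- or mir were removed, with ties given their mean rank. The leading genes, the gene lists and the shifted genes were chosen with earlier results of these data known. A gene was a leading gene at rank 200 or better in all 4 wild-type libraries. Shifts were sought among genes at rank 2000 or better in both libraries of at least 1 pair, with a rank ratio of at least 4. Genes named in the text were the 4 markers and the lineage genes, the 20 leading genes of best median rank outside ribosomal proteins, the 4 best of each function list, the 8 largest shifts in each direction and 8 more within a list, and 3 genes on each side of the limit. A few neighbours of these and markers of other cells were named after their values were seen, and a few genes are not reported here. Names were matched to a RefSeq table (GRCz12tu, used for names and neighbours only), which held 25288 of 30838 genes and 131 of the 139 leading genes. Stage marker lists came from the study's supplementary tables.

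Each mutant was compared with its own wild type by limma 3.58.1 in R 4.3.3 with a mean-variance trend on log2(scaled TPM + 1), with Benjamini-Hochberg adjustment. TPM was scaled by the median ratio to the gene means, taken across genes of mean TPM 1 or more with no 0, and genes with a mean scaled TPM under 1 were left out. A fold change on this scale understates the change of low genes. The fit was also run on data simulated with normal noise, whose outcome is not reported here and is not offered as a check of the calls. The libraries of a group came from different pools of larvae. The p-values rest on the spread between 2 libraries a group, drawn in part towards that of other genes of like level. The correlation of the deviations of same-numbered libraries was 0.01 for cebp1 and -0.02 for cebpb, so the numbers were not taken as pairs.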

Additional observations from a re-analysis of the deposited data

How the results depend on the processing

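The number of leading genes was 72, 302 and 583 with a limit of 100, 500 and 1000 in place of 200. It stayed within 1.5 times of 139 with no name removed, with other structural RNAs or transfer RNAs removed (the last chosen after seeing the data), on pair means and over genes in both tables. Without 1 library it was 141 to 143. Between pairs, the mean rho was 0.644 over genes above 0 in all 4 libraries and 0.455 over genes of at least 10 TPM in at least 1, where it was 0.456 within the cebp1+/+ pair. The shifted genes, in the order cebp1+/+ and cebpb+/+, numbered 289 and 393 at a ratio of 2, 57 and 61 at a ratio of 8, 60 and 98 in the top 1000, and 253 and 255 in the top 5000. Without 1 library they ranged from 133 to 261 and from 208 to 254.

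Calls in cebp1-/-, higher and lower, were 194 and 18 with a pseudocount of 0.1, 1 higher with no filter, 680 higher with a mean of at least 5, 16 higher with TPM as deposited and 11 higher with scaling on genes of at least 50 TPM. They were 0 and 0 with no trend and 0 and 0 without any 1 library, where an arm of 1 library remains and the lost calls say nothing about stability. In cebpb-/- they were 4 and 6 with a pseudocount of 5, 4 and 8 with a mean of at least 5, and 0 and 0 without any 1 library. With the replicate number as a block 49 genes were lower in cebp1-/-, and 12 were higher and 17 lower in cebpb-/-. The numbers do not pair the libraries, as their deviations did not correlate. The cause of these changes was not tested. The 2 libraries a group and an unknown depth limit the comparisons.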
